A study of Mus musculus with 9 samples.

Results

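White adipocytes that had been differentiated with norepinephrine (brown-induced white adipocytes, BWAT) were compared with brown adipocytes (BAT) by their DNA methylation. The comparison used the 2 BWAT libraries of days 4 and 6 and the 2 BAT libraries of the same days, which were 4 of the 9 libraries measured, and it covered all 838481 CpG cytosines in the data. Methylation was measured by reduced representation bisulfite sequencing, in which DNA is cut with restriction enzymes and bisulfite turns unmethylated cytosine into a base that is read as thymine, so that each cytosine receives a level from 0% to 100%.

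All cells came from BL6 mice aged 3 weeks and were grown from preadipocytes to confluence before induction. BAT cells were interscapular brown preadipocytes, induced with insulin, dexamethasone, 3-isobutyl-1-methylxanthine and rosiglitazone and harvested at day 4 or day 6. BWAT cells were a separate set of inguinal white preadipocytes induced in the presence of norepinephrine, with the same 2 harvest days. White adipocytes without norepinephrine (WAT, days 4 and 6) and the uninduced preadipocytes of both depots (day 0) are used below where stated. BWAT and BAT therefore differed in depot of origin as well as in norepinephrine, and these cannot be told apart within the comparison. Each condition and day was 1 library, and the labels do not say whether the days came from separate cultures. The p-values given here thus reflect the scatter of these libraries, which may be technical. The deposited levels carry no read counts, so depth is known only to be at least 10 reads at each cytosine and no interval can be given for a single value. Expression data were not used here, so the labelled cell types could not be checked against marker expression.

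Brown adipocytes burn fuel for heat through the mitochondrial uncoupler Ucp1, whereas white adipocytes store triglyceride. Noradrenergic stimulation can induce a thermogenic programme in white depots, giving cells usually called beige or brite, although interscapular brown cells descend largely from a Myf5-expressing lineage and inguinal white cells mostly do not. CpG methylation is copied at each cell division and at regulatory sequence it commonly goes with silencing. The Hox genes, in 4 clusters, record the position of a cell along the body axis.

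The sequences below are 6 measured regions that carry the comparison, namely the widest difference found (an intron of Maml3), a Hoxa2 exon, an intron of the brown preadipocyte factor Ebf2, an intergenic region whose nearest gene is Cadm1, an intron of the white fat gene Hoxc10 and the promoter of the hindlimb factor Pitx1. Each is given 5′ to 3′ on the plus strand of NCBIM37 (mm9), and capitals mark the CpG dinucleotides with a measured cytosine on either strand.
Maml3 intron, chr3:51833706-51833820: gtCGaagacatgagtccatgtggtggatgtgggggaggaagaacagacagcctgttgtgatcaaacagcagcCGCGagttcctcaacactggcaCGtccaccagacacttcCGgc
Hoxa2 exon, chr6:52113293-52113438: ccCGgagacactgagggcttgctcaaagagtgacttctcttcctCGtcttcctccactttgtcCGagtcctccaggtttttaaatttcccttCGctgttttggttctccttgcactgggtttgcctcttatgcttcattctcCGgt
Ebf2 intron, chr14:67859129-67859273: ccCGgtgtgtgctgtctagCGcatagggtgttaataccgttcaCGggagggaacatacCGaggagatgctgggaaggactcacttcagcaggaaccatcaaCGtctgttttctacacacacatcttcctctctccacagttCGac
Intergenic, nearest gene Cadm1, chr9:47833807-47833943: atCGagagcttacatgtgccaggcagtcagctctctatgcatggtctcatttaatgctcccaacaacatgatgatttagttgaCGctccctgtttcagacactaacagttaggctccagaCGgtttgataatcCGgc
Hoxc10 intron, chr15:102799144-102799294: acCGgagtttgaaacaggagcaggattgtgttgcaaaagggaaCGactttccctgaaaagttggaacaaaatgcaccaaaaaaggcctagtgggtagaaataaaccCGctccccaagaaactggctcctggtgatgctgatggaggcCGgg
Pitx1 promoter, chr13:55932973-55933121: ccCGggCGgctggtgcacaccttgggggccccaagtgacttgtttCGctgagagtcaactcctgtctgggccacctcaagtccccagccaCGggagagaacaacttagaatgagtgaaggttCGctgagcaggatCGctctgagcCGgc
At the 8 measured cytosines of the Maml3 stretch, levels ran from 0% to 16.1% in the BAT libraries and from 63.6% to 96.2% in the BWAT libraries. At the 8 cytosines of the Hoxa2 stretch the ranges were 3.51% to 30.2% in BAT and 69.8% to 95.6% in BWAT. In both stretches every cytosine was therefore higher in BWAT than any cytosine was in BAT. The order was opposite in the Cadm1 stretch, with 39.3% to 82.1% in BAT against 3.25% to 21.4% in BWAT at 6 cytosines, and in the Hoxc10 stretch, with 18.6% to 68.9% against 0% to 11.5% at 6 cytosines. Ranges overlapped in the Ebf2 stretch, with 8.70% to 80% in BAT and 23.3% to 97.8% in BWAT at 10 cytosines, and in the Pitx1 stretch, with 0% to 21.1% and 0% to 46.6% at 13 cytosines.

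Averaged over all cytosines, BWAT and BAT were nearly equally methylated. The mean level at day 4 was 40.6% in BAT and 40.8% in BWAT, and at day 6 it was 40.7% and 41.0%. BWAT was thus 0.228 percentage points above BAT at day 4 and 0.282 points at day 6, a small surplus that was positive on 19 of 19 chromosomes on both days, with ranges of 0.0113 to 0.429 and 0.122 to 0.518 points. The surplus lay outside promoters. It was 0.435 and 0.547 points in exons at days 4 and 6, 0.399 and 0.509 points in introns, and 0.329 and 0.482 points in intergenic sequence. Promoter cytosines went the other way on average, at -0.0379 and -0.112 points. Their difference was positive on 6 of 19 chromosomes at day 4 and on 1 at day 6. The ranges were -0.141 to 0.099 and -0.195 to 0.0327 points.

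Single cytosines differed far more than this average. At day 4, 82327 cytosines were at least 10 points higher in BWAT and 73929 at least 10 points lower, together 18.6% of all cytosines, and at day 6 the numbers were 77992 and 68700, or 17.5%. Part of these counts is read noise, which was separated by using the CpGs with both strands measured, since the reads of the strands are separate. Over 290047 such CpGs outside restriction sites, the covariance of the plus-strand and minus-strand differences between BWAT and BAT was 19.7 squared points at day 4 and 19.7 at day 6, equal to a standard deviation of 4.44 points in the difference that the strands shared. The same measure between WAT and BAT was 19.6 at day 4 and 19.2 at day 6, and between BWAT and WAT it was 0.127 and 0.523. BWAT and WAT thus shared almost no difference between strands, while each was at a similar distance from BAT. The 2 comparisons with BAT used the same BAT libraries. The strand difference within a library had a standard deviation of 6.23 to 7.77 points in the 4 libraries.

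To place the differences along the genome, the cytosines were joined into fragments, each holding 4 or more cytosines with no gap over 300 bp between neighbours. Mean fragment levels were put on a logit scale, log2((level + 1)/(100 − level + 1)), and tested with limma in a fit of all 9 libraries in 6 groups. The estimate of the spread within groups came from the 2 libraries each of BAT, WAT and BWAT. The day 0 libraries and the BAT library given norepinephrine were single in their groups and added nothing to it. At a Benjamini-Hochberg adjusted p below 0.05, 1022 of 67233 fragments (1.52%) differed between BWAT and BAT. Of these, 650 were higher in BWAT (0.967%) and 372 were lower (0.553%), with a median difference of 23.4 points in the former and -22.6 points in the latter, against 0.0129 points over all fragments. The difference reached 20 points in 670 of the 1022 and 40 points in 70. It was under 10 points in 78, with a smallest value of 1.31 points. A further 309 fragments differed by at least 20 points and were not called. Adjusted p-values went down to 0.00606. The calls needed all 4 libraries and the wider estimate of the spread. No fragment passed when the fit held only these 4 libraries, and the calls were lost when any of them was left out. In all 1022 the BAT and BWAT libraries did not overlap, so leaving out a library could not change the sign.

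The libraries of day 4 and day 6 are separate measurements of the difference, and their values are set against each other in the plot of fragment differences. Over all fragments, which share the libraries and differ in depth, the Pearson correlation of the day 4 and day 6 differences was 0.601, given as a description only.

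**Figure D1:**
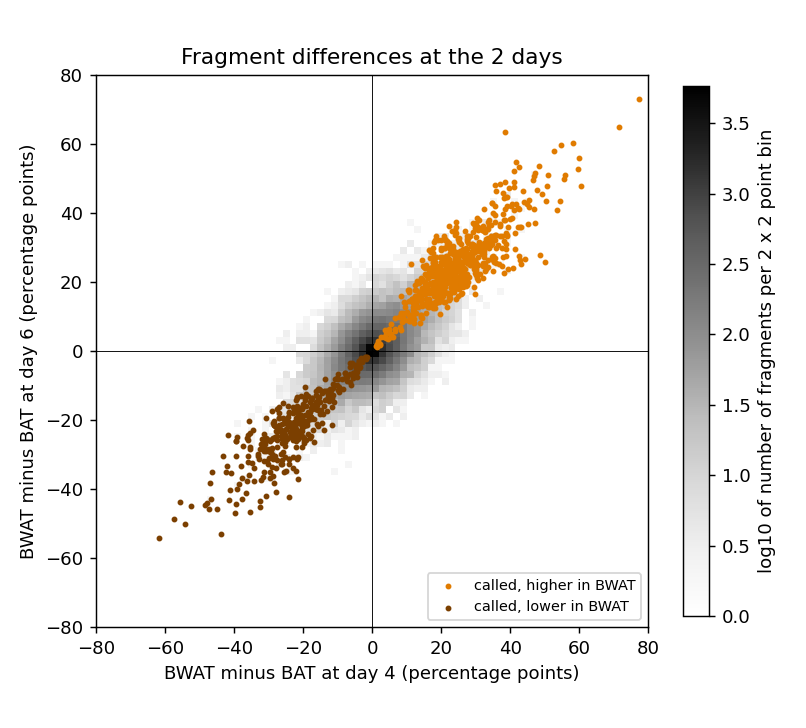
Difference between BWAT and BAT at day 4 (horizontal axis) and day 6 (vertical axis), in percentage points, for each fragment; grey shows the number of fragments per bin on a log10 scale, and coloured points are the 1022 fragments past the limma threshold. The 650 fragments called higher in BWAT lie in the upper right and the 372 called lower in the lower left.

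Fragments that differed were mostly distant from gene starts. By the annotation of most of their cytosines, 2.13% of intergenic fragments were called (304 higher and 174 lower in BWAT), 1.71% of intron fragments (235 and 147), 1.09% of exon fragments (77 and 27) and 0.452% of promoter fragments (34 and 24), against 1.52% overall. The share was 0.413% within 1 kb of the nearest protein-coding start and 2.64% beyond 100 kb. Fragments were also grouped by the mean level of the brown and white day 0 libraries. Those between 30% and 70% were called in 4.26% of cases and those between 10% and 30% in 4.07%. The share was 0.290% below 10% and 0.367% above 90%. A fragment that differs widely between the depots has an intermediate mean, so these shares were partly fixed by the grouping. Fragments dense in CpGs, with at least 12 in a window of 202 bp, were called in 0.497% of cases. Every chromosome contributed, from 1.07% of the fragments of chromosome 11 to 2.12% of those of chromosome 15. These shares were not tested against each other.

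**Figure D2:**
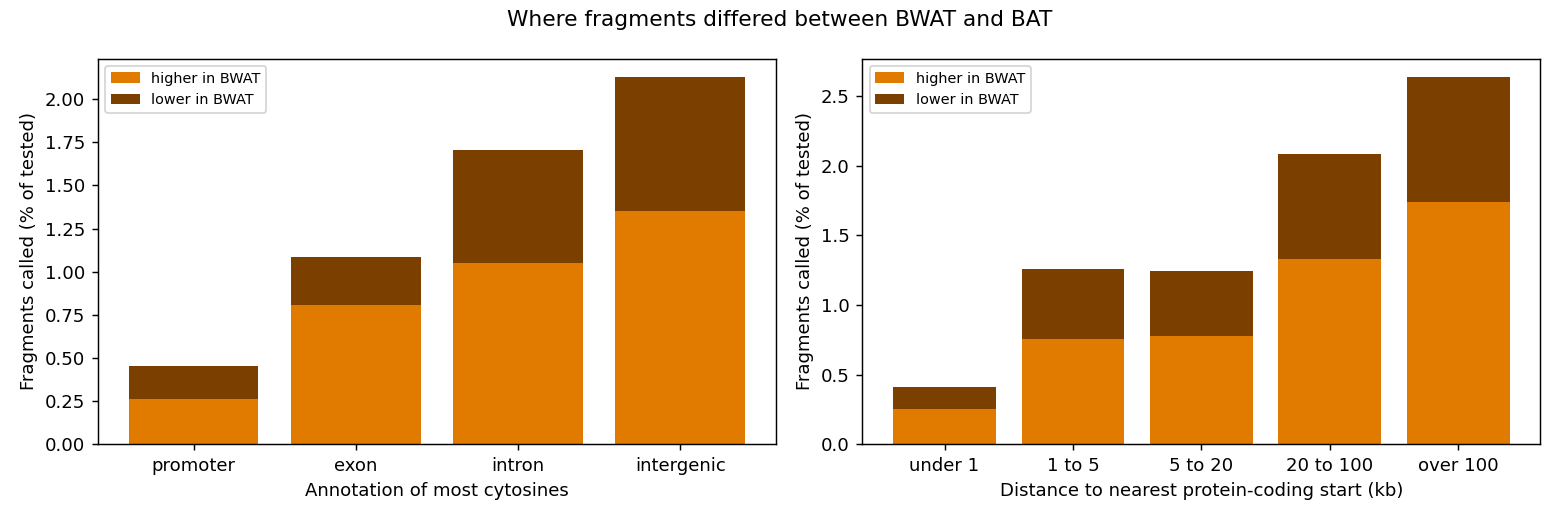
Percentage of tested fragments called higher (orange) or lower (brown) in BWAT than in BAT by limma, by the annotation of the fragment (left) and by distance to the nearest protein-coding start in kb (right). The share called rises from 0.452% in promoters to 2.13% in intergenic sequence and from 0.413% within 1 kb to 2.64% beyond 100 kb.

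The widest difference was in an intron of Maml3, a coactivator of Notch signalling, 75050 bp from the start. Its 8 cytosines averaged 5.01% and 2.65% in BAT at days 4 and 6 and 82.4% and 75.6% in BWAT, with 75.9% and 77.4% in WAT. BWAT was 75.2 points higher, a difference of 6.25 ± 0.32 (SE) on the logit scale (limma, adjusted p = 0.00606). The region was nearly unmethylated in the BAT libraries and mostly methylated in both white series. An intron of Gpc5, a cell-surface heparan sulphate proteoglycan, stood at 12.5% and 12.3% in BAT and 70.8% and 72.6% in BWAT (chr14:115587732-115587873, limma adjusted p = 0.00606). An intron of Mapk4, an atypical MAP kinase, stood at 29.3% and 29.6% in BAT and 89.2% and 85.5% in BWAT (chr18:74161856-74161992, limma adjusted p = 0.00832). In each of these introns, as in all 1022 called fragments, the BWAT libraries did not overlap the BAT libraries.

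The other regions furthest above BAT in BWAT included 4 Hox exons, described with their clusters. An intron of Park2, the ubiquitin ligase parkin that marks damaged mitochondria for removal, had 24.0% and 22.8% in BAT and 76.8% and 80.6% in BWAT (chr17:12059921-12060028, 4 cytosines, limma adjusted p = 0.00832). An intron of the deubiquitinase gene Usp46 had 28.4% and 33.9% against 79.3% and 84.9% (chr5:74457446-74457790, limma adjusted p = 0.0127). Intergenic regions near Gm10495 and Fam101a were 57.2 and 56.1 points higher in BWAT, and a region at -7174 bp from the start of Parvb, which codes for a focal adhesion protein, was 51.0 points higher. The libraries of a cell type stood further apart there, with 19.03% and 8.77% in BAT and 57.5% and 72.3% in BWAT.

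The regions furthest below BAT in BWAT were nearly all intergenic. The widest lay at -13791 bp from the start of Htr5a, a serotonin receptor gene, with 81.5% and 66.8% in BAT and 19.8% and 12.5% in BWAT at 4 cytosines (chr5:28154660-28154733, limma adjusted p = 0.0249). The region 228368 bp from the start of Cadm1, an adhesion molecule of the immunoglobulin family, had 65.8% and 54.6% in BAT and 10.1% and 11.003% in BWAT (limma adjusted p = 0.0123). Both were high in the BAT libraries and low in BWAT. A region at -228680 bp from the start of Runx1, best known as a blood cell transcription factor, had 61.2% and 75.9% against 17.6% and 22.8% (chr16:93054921-93055061, limma adjusted p = 0.0198). A region 74539 bp from the start of Wif1, a secreted Wnt inhibitor, had 70.4% and 71.9% against 22.1% and 27.4% (chr10:120545481-120545629, limma adjusted p = 0.0146). An intron of the receptor phosphatase gene Ptprg had 55.9% and 59.7% against 16.4% and 12.9% (chr14:12858707-12858760, limma adjusted p = 0.0150). The other 7 of the 12 widest lay near Cd83, 4930555I21Rik, Mtmr6, Gm765, Fam173b, Raet1d and Pou3f2, at -44.8 to -53.0 points. Distance alone links these regions to the genes named.

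Some genes had several called fragments. Among 963 genes with a called fragment nearest to or inside them, 121 had at least 2 and 21 at least 3. Those with 4 or more included Emx2, Alk, Pitx1, Hoxb9, Hoxc10, Hoxc4 and Nr2f2, of which all but the receptor kinase gene Alk code for transcription factors of development. The number tested differed between them, from 5 at Hoxc10 to 28 at Alk, so these counts give no ranking and no theme was tested.

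Of the Hox genes, 24 of 121 fragments were higher in BWAT and 10 lower (28.1%, against 1.52% of all fragments). Their median difference was 0.511 points, against 0.0129 over all fragments. The study had singled out Hox genes in these same libraries, so the list is not independent evidence. Counted instead over all fragments of each cluster and of a flank beyond either end, a slightly larger set than those of the listed genes, the calls were as follows. In HoxA, 9 fragments were higher and 2 lower of 37, in HoxB 9 were higher and 1 lower of 38, and in HoxC 7 were higher and 7 lower of 26. In HoxD no fragment of 36 passed in limma, with 3 at an unadjusted p below 0.05 and differences from -10.2 to 20.2 points. Whether the clusters differ was not tested.

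In HoxA the fragments higher in BWAT were near Hoxa2, Hoxa3, Hoxa5, Hoxa7 and Hoxa11. The Hoxa2 exon averaged 14.4% and 18.4% in BAT and 85.9% and 83.4% in BWAT, a difference of 4.68 ± 0.23 (SE) on the logit scale (limma, adjusted p = 0.00606). The exon of Hoxa5 (chr6:52153893-52153915, 9 cytosines) had 1.43% and 4.44% in BAT and 61.9% and 52.3% in BWAT, and the Hoxa3 exon (chr6:52120341-52120607, 16 cytosines) 25.1% and 28.8% in BAT and 80.7% and 78.5% in BWAT. These exons were mostly unmethylated in brown cells and mostly methylated in BWAT. The 3 fragments at Hoxa11 differed less, by 9.16 to 15.6 points. The 2 lower fragments lay in an exon of Hoxa9, at 44.6% and 35.3% in BAT and 15.6% and 18.0% in BWAT, and in a Hoxa3 intron, at -4.56 points.

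In HoxB the fragments higher in BWAT lay around Hoxb9, Hoxb5 and Hoxb3 and in Gm53. Upstream of Hoxb9, at the promoter of Mir196a-1, a microRNA that targets Hox transcripts, 14 cytosines had 19.1% and 19.7% in BAT and 57.3% and 64.0% in BWAT. A region 3′ of the Hoxb5 start, which is also the promoter of the overlapping transcript 0610040B09Rik, had 30.3% and 33.9% in BAT and 81.0% and 81.6% in BWAT. Around the Hoxb6 start the order was reversed, with 16.3% and 20.2% in BAT and 1.26% and 2.05% in BWAT (10 cytosines, limma adjusted p = 0.0127). The neighbouring fragments on either side, in a Hoxb7 exon and at -478 bp from the Hoxb5 start, differed by -1.52 and 4.26 points and did not pass.

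The HoxC cluster changed direction along its length. At the Hoxc13, Hoxc12 and Hoxc11 end, 5 fragments were 19.6 to 42.7 points higher in BWAT. From Hoxc10 to Hoxc6, 7 fragments were lower, by -34.3 to -9.99 points. At Hoxc4, 2 fragments were higher again, by 33.5 and 53.5 points. The Hoxc10 intron had 33.3% and 45.7% in BAT and 5.56% and 4.83% in BWAT (limma adjusted p = 0.0146), while the exon of Hoxc4 (chr15:102866189-102866309, 14 cytosines) had 1.94% and 1.09% in BAT and 57.9% and 52.0% in BWAT (limma adjusted p = 0.00606). Hoxc10 and Hoxc9, which mark white fat, were the less methylated in BWAT at these fragments, and these 2 Hoxc4 fragments were almost free of methylation in BAT. A Hoxc4 intron that was not called had 32.4% and 23.8% in BAT and 31.4% and 33.3% in BWAT.

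**Figure D3:**
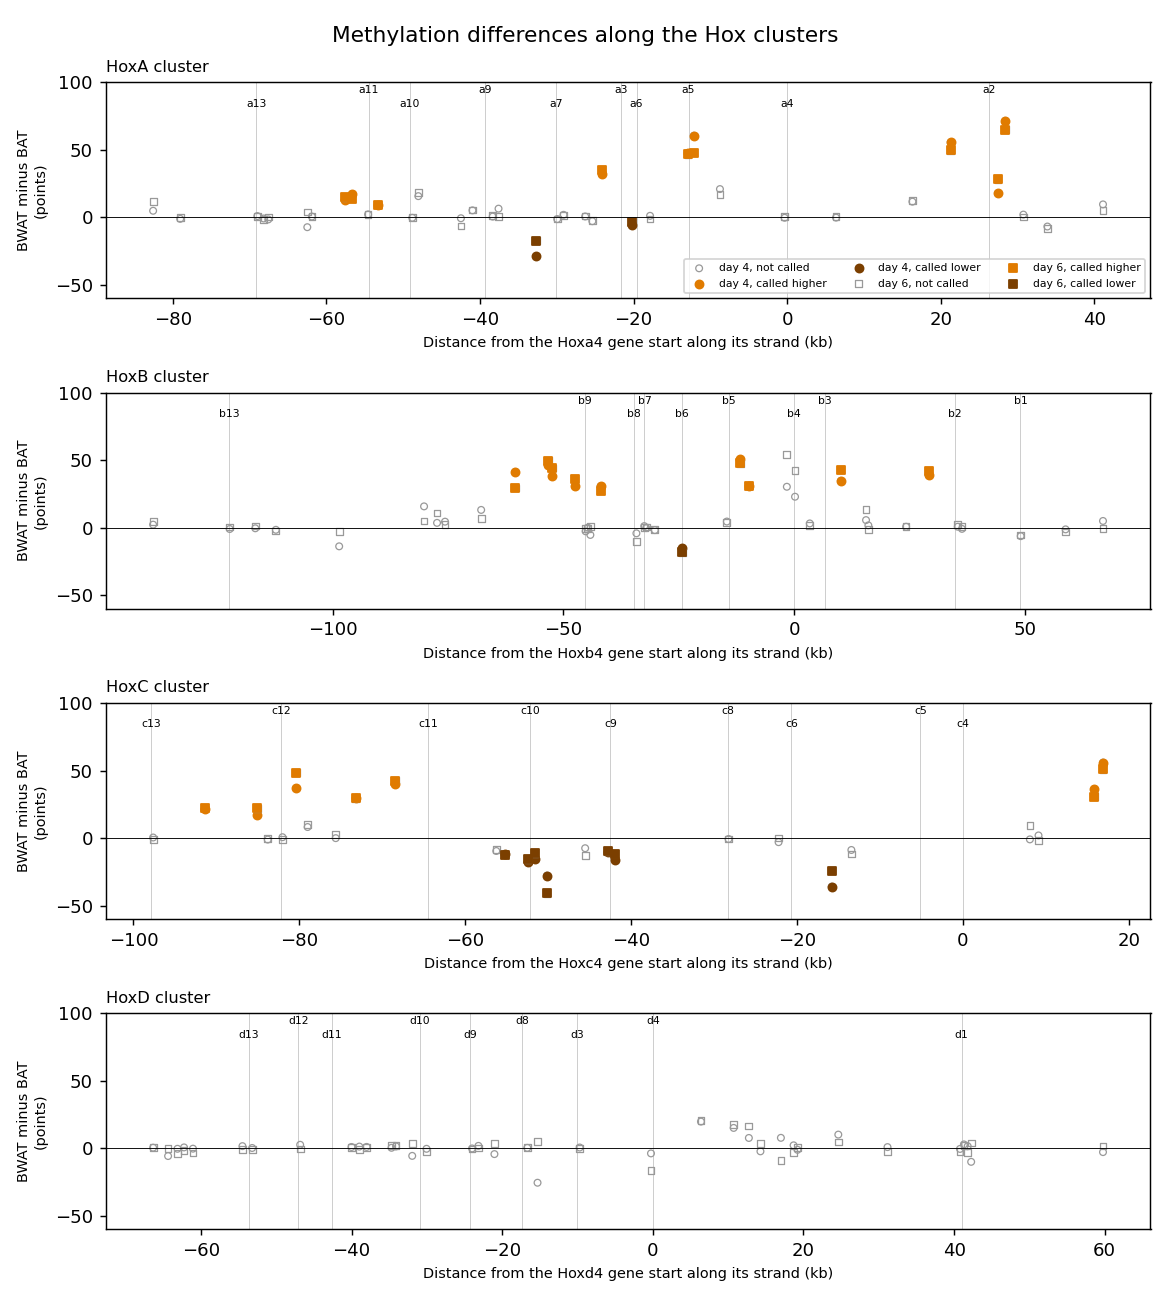
Difference between BWAT and BAT in percentage points at each fragment of the 4 Hox clusters and their flanks. The horizontal axis is the distance in kb from the start of Hoxa4, Hoxb4, Hoxc4 or Hoxd4 along its strand. Circles are day 4, squares day 6, filled symbols passed limma, and grey lines mark the outermost annotated start of the genes labelled. HoxC runs from higher at Hoxc13 to Hoxc11 through lower at Hoxc10 to Hoxc6 to higher at Hoxc4, and no HoxD fragment is filled.

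Other regulators of position and limb identity were called in 8 fragments higher and 14 lower in BWAT of 414 (5.31%, against 1.52% overall), with a median of -0.385 points. Pitx1, which specifies hindlimb identity, had 5 called fragments, all higher in BWAT by 15.6 to 35.2 points. In one of its exons 39 cytosines had 4.18% and 4.03% in BAT and 37.1% and 39.3% in BWAT (chr13:55926675-55926960, limma adjusted p = 0.00832). Pitx1 was thus nearly unmethylated in brown cells at this exon and partly methylated in BWAT.

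Emx2, a factor of forebrain and urogenital development, had 7 called fragments nearest to it, 6 lower and 1 higher. Its exon had 56.6% and 47.8% in BAT and 9.72% and 9.46% in BWAT (chr19:59535999-59536218, 12 cytosines, limma adjusted p = 0.0163). En1 was higher in BWAT at 2 fragments, by 22.9 and 33.7 points, Barx1 at 1, by 16.7 points, and Osr2 lower at 2, by -34.8 and -32.6 points. Fragments near Twist1 (-28.7 points), Msx1 (-24.8 points) and Zic2 (-11.5 points) were lower too. Further from the starts of these genes, and singled out after their values were seen, Nr2f2, which codes for the nuclear receptor COUP-TFII, had 4 called fragments of 21 nearest to it or inside it, all higher in BWAT by 18.2 to 34.2 points. Tbx3, a T-box factor of limb patterning, had 3 of 42, higher by 3.90 to 21.5 points.

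Promoters were examined by a rule that needs no test, as read counts were not available. A promoter, from 1000 bp upstream to 500 bp downstream of a start and with at least 2 measured cytosines, was called when at least 2 cytosines differed by 10 points or more, with no such cytosine in the other direction, at day 4 and again at day 6. Of 13652 promoters, 155 were called higher in BWAT at both days (1.14%) and 168 lower (1.23%). Of the 693 promoters higher at day 4 alone (5.08%), 22.4% were also higher at day 6, against 3.83% of all promoters, and of the 730 lower at day 4 (5.35%), 23.0% were also lower at day 6, against 7.4% of all. The days thus shared more calls in the same direction than the background share, while most calls of a single day were not repeated at the other. Opposite calls were above their background too, by less. Of those higher at day 4, 9.81% were lower at day 6, against 7.4% of all. Of those lower at day 4, 4.66% were higher at day 6, against 3.83%. In 102 promoters (0.747%) the days gave opposite directions. In limma no promoter passed an adjusted p of 0.05, the smallest being 0.0521 for Hoxc4, and 1108 (8.12%) had an unadjusted p below 0.05. The mean difference over the promoter reached 10 points in 84 of the 155 and in 55 of the 168. Calls by this rule are therefore descriptions without an error rate.

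Of the 37 Hox promoters, 4 were called higher (Hoxa5, Hoxb4, Hoxc4 and Hoxd3) and 4 lower (among them Hoxb6, Hoxc9 and Hoxc10), together 21.6% against 2.37% of all promoters. Hoxd3, in the cluster with no called fragment, had 28.3% and 20.03% in BAT and 43.5% and 37.5% in BWAT. Of 76 promoters of other positional regulators, 3 were higher (Pitx1, Pax1 and Zic1) and 5 lower (among them Pax2, Zic4, Zic5 and Twist2), or 10.5%.

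Hox loci were also among the promoters with the widest higher level in BWAT. The Hoxa5 promoter (chr6:52154086-52155586, 22 cytosines) had 7.93% and 2.86% in BAT and 55.6% and 49.6% in BWAT, with 48.5% and 54.8% in WAT. The Hoxc4 promoter (chr15:102863826-102865326, 15 cytosines) had 0.519% and 1.14% in BAT and 39.0% and 34.1% in BWAT. Csrnp3, which codes for a nuclear protein, had 36.6% and 31.3% in BAT and 71.5% and 71.2% in BWAT at 15 cytosines (chr2:65786006-65787506). In these promoters BAT and BWAT did not overlap, and the gap between them was wider than the distance between the days. Hoxb4 was higher by 32.6 points and Dlx6os1, a noncoding transcript of the Dlx5 and Dlx6 locus, by 32.6 points. Others of the 12 widest were 0610040B09Rik at 2 promoters, Mir196a-1, Gm10295, Gm10397 and RP23-76I20.1, at 31.1 to 49.2 points.

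Among promoters lower in BWAT, that of Zic4, a zinc finger gene of the Zic family, had 40.7% and 35.2% in BAT and 6.57% and 14.7% in BWAT at 3 cytosines (chr9:91276248-91277748). Gpam, which codes for the mitochondrial acyltransferase that begins triglyceride synthesis, had 75.9% and 83.3% against 59.3% and 53.3% at 3 cytosines (chr19:55201324-55202824). Padi1, a peptidylarginine deiminase gene, had 69.1% and 73.5% against 43.2% and 48.8% at 13 cytosines (chr4:140401193-140402693). In none of these 3 did the BAT and BWAT libraries of days 4 and 6 overlap, but those of Zic4 and Gpam rest on 3 cytosines. At Gpam the gap did not extend to the other brown libraries. The level was 58.1% in brown preadipocytes and 47.8% in BAT of day 6 given norepinephrine for 4 h. The centrosome gene Cep250 and Ccdc42 were lower by -23.6 and -26.4 points, and 6 noncoding transcripts, Gm16767, Gm17668, Gm11974, Gm13054, Gm11379 and 8430419K02Rik, by -22.6 to -36.8 points. Gm11974, with 3 cytosines, had 22.7% and 59.0% in BAT, and its difference of -32.8 points was -51.0 without BAT day 4 and -14.7 without BAT day 6.

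**Figure D4:**
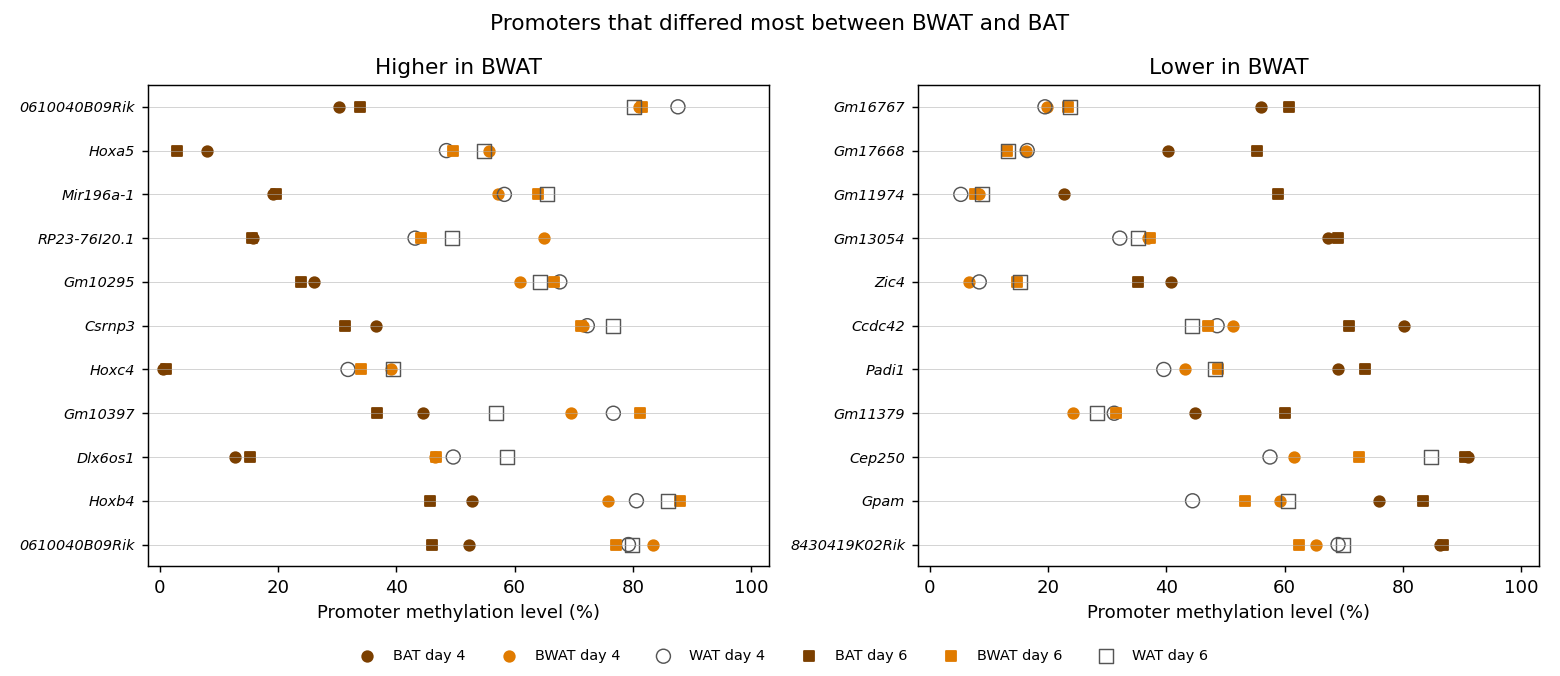
Mean methylation level (%) of 11 of the promoters furthest above BAT (left) and 11 of those furthest below (right) in BWAT, for BAT (brown), BWAT (orange) and WAT (open) at day 4 (circles) and day 6 (squares); 0610040B09Rik has 2 promoters. The Hoxa5 promoter is at 7.93% and 2.86% in BAT and at 55.6% and 49.6% in BWAT, and WAT symbols lie mostly beside those of BWAT.

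Genes of brown fat identity had few calls. Of 26 promoters in the list, 2 were called higher in BWAT (Ebf2 and Zic1) and none lower (7.69%, against 2.37% of all promoters). The median was -0.0258 points, against -0.0794 over all promoters. Of 198 fragments, 2 were called (1.01%, against 1.52% overall), both at Ebf2, and 19.7% had an unadjusted p below 0.05 in limma, against 15.3%. The Ebf2 promoter (26 cytosines) had 7.65% and 8.39% in BAT and 17.9% and 19.8% in BWAT (limma over fragments, adjusted p = 0.0496), and the Ebf2 intron printed above had 31.8% and 27.0% in BAT and 56.2% and 61.2% in BWAT (limma adjusted p = 0.0331). Ebf2, which commits precursors to the brown lineage, was thus the more methylated in BWAT at both sites. These were the 2 called of 12 fragments within 10000 bp of its start or inside it. Differences over the 12 ran from -2.77 to 29.2 points, with a median of 2.15 points. In limma over promoters the Ebf2 promoter did not pass (adjusted p = 0.202). The promoter of Zic1, a marker of interscapular brown fat, had 10.4% and 8.20% in BAT and 13.3% and 12.6% in BWAT, a difference of 3.62 points. At Zic1 the gap did not extend to the other brown libraries. Brown preadipocytes were at 16.3%, above both BWAT libraries. BAT of day 6 given norepinephrine for 4 h lay between the levels of the BWAT libraries. The Zic1 promoter was also counted with the other positional regulators. None of the 5 Zic1 fragments passed in limma, with differences from -14.6 to 3.50 points.

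Promoters of Prdm16 and Cidea were almost free of methylation in all 4 libraries. Prdm16, a coregulator that fixes brown identity, had 0.341% and 0.848% in BAT and 0.260% and 0.707% in BWAT. None of its 36 fragments passed in limma, with 9 at an unadjusted p below 0.05 and differences from -28.0 to 15.4 points. Cidea, a lipid droplet protein abundant in brown fat, had 3.44% and 4.19% in BAT and 1.21% and 0.442% in BWAT, and Lhx8 had 3.14% and 3.92% against 4.42% and 3.65%. The differences at these promoters were small in points. The promoters of Ucp1, Ppargc1a and Dio2 had fewer than 2 measured cytosines and are not analysed here. The 2 fragments in or near Ppargc1a differed by -1.49 and 0.152 points.

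Genes of white and beige fat were called lower in BWAT at 2 of 19 promoters, those of Hoxc9 and Hoxc10, and higher at none (10.5%, against 2.37% of all promoters). Of their 120 fragments, 7 were lower and 1 higher (6.67%, against 1.52% overall), with a median of -0.177 points. These shares are not separate results. The Hoxc9 and Hoxc10 promoters and fragments were already counted with the Hox genes, and the Shox2 fragment with the other positional regulators. The Hoxc10 promoter (29 cytosines) had 17.9% and 18.1% in BAT and 1.45% and 3.44% in BWAT, and the Hoxc9 promoter (27 cytosines) 12.1% and 11.6% in BAT and 0.337% and 1.28% in BWAT. Both were nearly unmethylated in BWAT, as in WAT, where they did not exceed 2.99% and 1.49%. Of the 7 lower fragments 6 belonged to these 2 genes, and the other was an intron of Shox2, with 47.0% and 47.4% in BAT and 22.8% and 14.6% in BWAT (limma adjusted p = 0.0349). The fragment higher in BWAT was an exon of the beige marker Tbx1, with 8.02% and 9.61% in BAT and 27.4% and 23.7% in BWAT (limma adjusted p = 0.0335). The promoters of the beige marker Tmem26 and of Tbx15 did not pass at both days. Tmem26 differed by -11.7 points at day 4 and -2.26 points at day 6, and Tbx15 by 3.08 and -0.152 points. The promoter of Tnfrsf9 had fewer than 2 measured cytosines.

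The next 3 lists had shares of calls near those over all promoters (2.37%) and all fragments (1.52%), so their calls are given as single values and not as results about the lists. Adipogenic factors and lipid genes were called at 1 of 31 promoters (3.23%), that of Gpam, and at 2 of 136 fragments (1.47%), both introns of the signal transducer Stat5b, lower in BWAT by -24.8 and -24.9 points. The median over promoters was -0.217 points. Pparg and Cebpa, the central regulators of adipogenesis, had promoter levels of at most 1.74% in all 4 libraries. Neither gene had a called fragment of 4 and 3 tested, and none had an unadjusted p below 0.05 in limma. Preadipocyte and antiadipogenic genes were called at 1 of 46 promoters (2.17%) and 4 of 234 fragments (1.71%). The promoter was that of the osteoblast factor Runx2, higher by 14.6 points at 4 cytosines. It had 41.9% and 45.8% in BAT, 55.9% and 61.1% in BWAT and 56.4% and 42.0% in WAT. The gap did not extend to brown preadipocytes, at 65%, and BAT of day 6 given norepinephrine was at 53.4%. In the same gene 2 introns were lower, by -12.6 and -24.2 points. An intron of the Wnt effector Tcf7l2 was higher by 28.5 points.

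Of adrenergic and cAMP signalling genes, through which norepinephrine acts, 1 of 43 promoters was called (2.33%, against 2.37% overall). This was Adra1a, an alpha-1 adrenergic receptor gene, with 66.2% and 69.7% in BAT and 57.1% and 52.0% in BWAT at 4 cytosines. Of 174 fragments, 3 were called (1.72%, against 1.52% overall). A region at -5897 bp from the start of Adrb3, the beta-3 adrenergic receptor of adipocytes, had 90.1% and 87.9% in BAT and 71.5% and 74.8% in BWAT (chr8:28345910-28346004, limma adjusted p = 0.0361). An intron of Mapk14, the p38 kinase downstream of the receptor, was lower by -28.5 points, and an intron of the phosphodiesterase gene Pde4d was higher by 23.9 points. The Adrb3 promoter itself was at 0.980% and 3.03% in BAT and 8.33% and 5.26% in BWAT at 3 cytosines, and was not called at day 6.

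Markers of other cell types in the fat depots were examined because a bulk level is an average over cells, and a different mixture of cells and a different level per cell cannot be told apart. The counts stand beside 2.37% of all promoters and 1.52% of all fragments, and most of these lists are too short for a share to be read. Skeletal muscle genes were called at 2 of 15 promoters and 1 of 106 fragments. The muscle lineage factor Myf5 had 86.3% and 83.2% in BAT and 92.7% and 94.6% in BWAT, and the promoter of the sarcomere gene Ttn was lower in BWAT by -14.3 points while an exon of it was higher by 17.7 points. Endothelial markers were called at 1 of 7 promoters (Pecam1, 20.1 points higher) and 1 of 65 fragments (an intron of Erg, 26.0 points higher). Haematopoietic markers were called at 1 of 4 promoters (Coro1a, -1.14 points) and 1 of 30 fragments (an exon of Itgam, 19.7 points higher). Of smooth muscle, epithelial, mesothelial and neural markers, none of 7, 12, 1 and 12 promoters was called at both days. Fragment calls were 1 of 39 in smooth muscle genes and 1 of 52 in epithelial genes, an exon of Epcam that was lower by -26.7 points. In limma 0 of 18 mesothelial and 0 of 53 neural fragments passed, with 5 and 5 at an unadjusted p below 0.05. The part of cell mixture in the differences was not tested.

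Imprinted genes were called lower at 3 of 40 promoters (7.5%, against 2.37% overall), those of Slc22a3, Asb4 and Mkrn3, by -8.39 to -12.6 points. Without BAT day 4 the Asb4 difference was -7.002 points in place of -12.6. Of their 137 fragments 2 passed (1.46%, against 1.52% overall), near Mest (-25.2 points) and in Ube3a (2.18 points). Genes of the DNA methylation machinery had no called promoter of 24 and no called fragment of 87 in limma, where 10 had an unadjusted p below 0.05.

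WAT values were set beside those of BWAT to show where the BWAT libraries lay. WAT differed from BAT at 980 fragments (1.46%), 643 higher (0.956%) and 337 lower (0.501%), with the same BAT libraries serving both comparisons. Between BWAT and WAT no fragment of 67233 passed in limma, and 3096 (4.6%) had an unadjusted p below 0.05. In the 1022 fragments called between BWAT and BAT the median size of the difference was 23.0 points, that between WAT and BAT 22.0 points and that between BWAT and WAT 2.04 points. BWAT was within 10 points of WAT in 1004 of these fragments, and the widest distance was 18.9 points.

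Regions already apart before differentiation were chosen from the day 0 libraries alone, which enter neither BWAT nor the later BAT values. There were 1135 fragments at least 20 points apart between brown and white preadipocytes, 782 higher and 353 lower in the white cells, and 27.1 points apart on average. In these regions BWAT remained 21.8 points from BAT at day 4 and 21.8 points at day 6, in the direction of day 0. The corresponding distance of WAT was 22.1 and 21.7 points. Some narrowing relative to day 0 is built into the choice of wide differences. At least 10 points of the day 0 difference were present in 84.5% of the regions in BWAT at day 4 and 84.8% at day 6, and in 86.3% and 84.2% in WAT. The sign was opposite in 3.35% and 3.61% of the regions in BWAT. On average BWAT differed from WAT by -0.263 points at day 4 and 0.0821 points at day 6 in these regions.

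**Figure D5:**
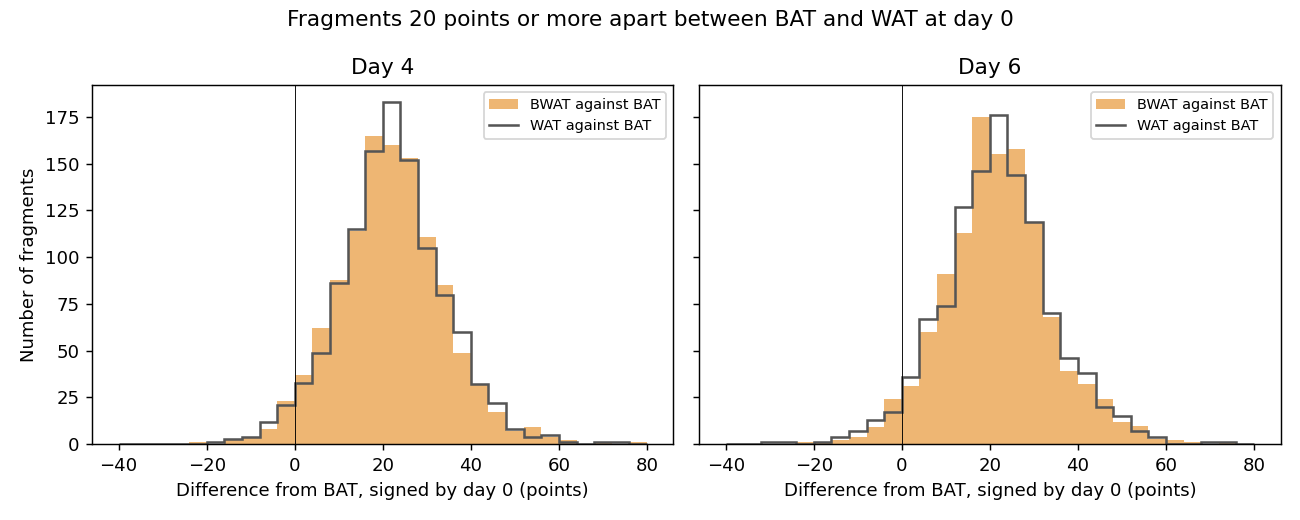
Number of fragments by their difference from BAT in percentage points, signed so that positive values have the direction of day 0, at day 4 (left) and day 6 (right), for the 1135 fragments 20 points or more apart between BAT and WAT preadipocytes; filled bars are BWAT and the outline is WAT. BWAT and WAT have nearly the same distribution, with means of 21.8 and 22.1 points at day 4.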

How the data were processed

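Per the study's methods, DNA was digested with MspI and TaqαI, size-selected, bisulfite-converted and sequenced from both ends, and cytosines read at least 10 times in all 9 libraries were kept. The submitters' processing notes name Bowtie and mm9. No source used here states which version of Bowtie. The authors deposited the methylation level of each autosomal CpG cytosine as a percent, 1 column per library, without read counts. The study's Fisher exact test of reads could therefore not be run.

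All 838481 cytosines lay on CpGs of NCBIM37. They were annotated with GENCODE vM1, in the order promoter, exon, intron and intergenic. Starts of retained-intron, decay and pseudogene transcripts were not used for promoters. A fragment or promoter had the mean level of its cytosines. limma 3.58.1 (R 4.3.3) was fitted to 9 libraries in 6 groups, with days 4 and 6 as the 2 libraries of a group, no day term and Benjamini-Hochberg adjustment over all fragments or promoters. The deviations of day 6 from day 4 correlated at 0.0184, 0.0153 and 0.00949 between cell types. Python 3.11.15 was used for the counts, and the tests were checked on simulated data. Fragments belonged to a list gene within 10000 bp of its start or inside it.

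The 12 widest promoters (called at both days, at least 3 cytosines) and fragments (past the limma threshold) in each direction were named, with 22 fixed promoters and called members of 16 gene lists. Members and lists were chosen with earlier results of these data known. The lists were Hox clusters, other positional regulators, brown fat, white and beige fat, adipogenic factors and lipid genes, preadipocyte and antiadipogenic genes, adrenergic and cAMP signalling, skeletal muscle, imprinted, endothelial, haematopoietic, smooth muscle and pericyte, mesothelial, epithelial, neural and Schwann, and DNA methylation genes. Results for a few items are not reported here.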

Additional observations from a re-analysis of the deposited data

Results flagged for a closer look

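Among members of the gene lists, 3 promoters met the promoter rule in opposite directions at day 4 and day 6, and the mean difference between BWAT and BAT changed sign. The Zrsr1 promoter (5 cytosines) differed by -34.8 points at day 4 and 4.67 points at day 6, with 76.8% and 45.3% in BAT and 42.0% and 50% in BWAT. The Mcts2 promoter (46 cytosines) differed by 8.24 and -8.66 points, with 39.7% and 48.9% in BAT and 47.9% and 40.2% in BWAT. The Hoxc13 promoter (43 cytosines) differed by 1.82 and -1.62 points, from levels of 1.05% to 3.42% in the 4 libraries. The difference between the days was not tested. Zrsr1 and Mcts2 are imprinted genes in the mouse.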

How the results depend on the processing

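Each count rests on 2 libraries per cell type, and depth is unknown beyond the minimum of 10 reads. No called difference changed sign. Of those not called, Tbx15, 1.46 points, was -0.134 without BWAT day 4, and Prdm16, -0.111 points, reached 0.142 without BAT day 6. Promoters called at both days, 155 higher and 168 lower in BWAT, were 75 and 49 at 20 points and 82 and 69 with at least 3 cytosines, and from 220 to 275 and from 252 to 479 when a library was left out and the other day stood for both. The share higher, 48.0%, passed to the other side of an even split at 20 points (60.5%), with at least 3 cytosines (54.3%), with strands merged (51.7%) and without BWAT day 6 (51.5%), and was 31.5% without BAT day 4, so promoter calls have no stable balance of direction. Promoters by limma, 0 and 0, were 17 and 14 with a logit offset of 5, 1 and 1 on the percent scale, 21 and 14 among those of 5% to 95%, 1 and 0 with a window of 500 bp either side, and 0 and 0 with any library left out. Fragments by limma, 650 and 372, were 1239 and 735 with an offset of 5, 1197 and 708 on the percent scale, 1189 and 691 at 5% to 95%, 339 and 190 of 51732 without cytosines in restriction sites, 0 and 0 in a fit of the 4 libraries alone (9668 at an unadjusted p below 0.05), and 0 and 0 with any library left out (7341 to 9690 unadjusted). With day as a replicate block, 212 and 116 fragments passed, 320 of them among the 1022, and no promoter. The labels give the days and no shared culture, so the block has no pairing behind it. The cause of these changes was not tested. Of 213 values of the named fragments under the alternatives, 92 stayed past the threshold and 121 did not, all with the same sign. Of 329 values of the named promoters 52 moved by more than the spread between the days.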

Other observations

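Among the 1135 regions apart in preadipocytes, 8 had BWAT shifted from WAT by at least 10 points in the direction of BAT at both days, and 3 by at least 10 points in the other direction. At 15 points there were 0 of either kind. The widest was an intergenic region at -68329 bp from the start of Trpm3, a cation channel gene, with 14.6% and 10.4% in BAT, 43.5% and 47.1% in WAT and 28.6% and 16.6% in BWAT at 4 cytosines. An intron of Shroom3, a regulator of cell shape, had 74.5% and 87.5% in BAT, 63.7% and 56.4% in WAT and 75.8% and 78.2% in BWAT. A region nearest to Kdr, a receptor for vascular endothelial growth factor, had 12.95% and 18.8% in BAT, 38.9% and 37.9% in WAT and 27.0% and 27.7% in BWAT. The others lay near Efnb2, Znhit6, Mllt3, Rap1b and Egr2. None passed between BWAT and WAT in limma, and each was chosen after its values were seen.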
